A study of Mus musculus with 2 samples.

Results

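The genes described here are 50 components of Wnt signalling: 11 Wnt ligands, 15 receptors and coreceptors, 11 secreted modulators, 11 intracellular effectors and 2 factors for Wnt secretion. They are a list of gene names drawn up with earlier results of these data known, and all 50 were found among the 43346 Ensembl gene entries of the deposited tables. The tissue was hindbrain of mouse embryos at 11.5 days of gestation (E11.5), strain B6NCrl, male and female embryos mixed, healthy and with no treatment or engineered allele named. Total RNA was sequenced from 2 pools of dissected tissue, pool 1 from 109 embryos and pool 2 from 88 embryos. The pools are the 2 biological replicates of a single group, so levels, shares and differences between the pools are given with no test between conditions and no p-value. Each library began from 10 ng of RNA longer than 200 nt.

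Wnts are secreted, lipid-modified glycoproteins. Porcn attaches the lipid in the producing cell and Wls carries the modified protein to the surface. On the receiving cell, a Wnt bound to a Frizzled and to Lrp5 or Lrp6 recruits Dishevelled and Axin, which stops Gsk3b and the Apc-Axin complex from marking beta-catenin for destruction. Beta-catenin then enters the nucleus and acts with Lef1, Tcf7, Tcf7l1 or Tcf7l2. Other Wnts act through Ror1, Ror2 or Ryk on cell polarity and axon growth without beta-catenin. In the embryonic hindbrain, roof plate Wnts are known for dorsal patterning and progenitor growth, and Wnt1 at the midbrain-hindbrain border for keeping that boundary.

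Several results below turn on which form of a gene was made, and the sequences that tell the forms apart are printed first. They are GENCODE M21 transcript sequences on mm10, joined as spliced, 5′ to 3′. For Lgr4, Gsk3b and Lef1 the capitals mark an exon that 1 annotated transcript includes and another skips, with 20 bases of the spliced neighbours on each side. For Ryk the capitals mark 9 bases gained by using the upstream of 2 splice acceptors. For Tcf7l2 the capitals mark 77 bases of intron kept at the end of a short transcript, after the last 20 bases of the exon.
Lgr4 (72-base exon 2 of Lgr4-201, chr2:109970692-109970763, + strand): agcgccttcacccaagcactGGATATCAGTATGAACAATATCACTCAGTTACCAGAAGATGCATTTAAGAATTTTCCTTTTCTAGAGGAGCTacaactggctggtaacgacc
Gsk3b (39-base exon 9 of Gsk3b-202, chr16:38217113-38217151, + strand): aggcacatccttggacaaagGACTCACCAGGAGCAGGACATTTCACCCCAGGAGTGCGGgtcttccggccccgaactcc
Lef1 (41-base exon 10 of Lef1-202, chr3:131204933-131204973, + strand): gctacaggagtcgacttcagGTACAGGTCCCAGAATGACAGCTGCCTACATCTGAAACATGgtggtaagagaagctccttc
Ryk (9 bases at the start of exon 8 of Ryk-203, chr9:102885994-102886002, + strand): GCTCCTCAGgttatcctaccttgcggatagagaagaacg
Tcf7l2 (intron end of Tcf7l2-204, chr19:55912646-55912722, + strand): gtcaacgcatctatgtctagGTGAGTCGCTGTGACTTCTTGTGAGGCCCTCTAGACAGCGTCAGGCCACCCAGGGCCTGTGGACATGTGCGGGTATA
The Lgr4, Gsk3b and Ryk stretches are coding over their whole length, and 72, 39 and 9 are each divisible by 3, so the reading frame goes on after them. The Lef1 exon is not, and the annotated coding sequence of Lef1-202 ends inside it after 32 bases.

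The tables held 45340440 estimated read counts in pool 1 and 41261544 in pool 2. The spiked-in control RNAs took 16.2% and 22.2% of the summed TPM (a length-corrected measure of transcript abundance, scaled to the same total in each library), and the median gene was lower in pool 2, at -0.11 on the log2 scale, so pool differences are stated relative to it. The hindbrain label fitted 5 of its 6 markers, with Egr2 under 1 TPM in both pools. Hoxa2, a hindbrain patterning gene, was at 49.3 and 48.1 TPM in pools 1 and 2, while the 4 forebrain markers summed to 1.57 and 1.10. The midbrain and isthmus markers summed to 81.7 and 68.9 TPM, mostly from Cnpy1 (55.2 and 43.3). Of parts of the hindbrain itself, roof plate and choroid plexus markers (6 genes) summed to 264 and 188 TPM, mostly from Ttr (225 and 163). Floor plate markers (4 genes) summed to 10.5 and 14.3. Markers of other tissues were also present, none of them at 0: skeletal muscle (6 genes, 59.9 and 26.2 TPM), otic epithelium (4 genes, 113 and 52.7), and neural crest and ganglia (5 genes, 139 and 99.1). Most of the otic sum was Oc90 (105 and 47.6 TPM), and 2 of the 4 otic markers were higher in pool 2 relative to the median gene. Larger sums came from mesenchyme and meninges (6 genes, 551 and 505 TPM) and erythroid cells (4 genes, 10040 and 9510). Endothelium gave 118 and 104 TPM over 7 genes. In bulk tissue, fewer cells of a type and less RNA per cell cannot be told apart.

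A gene was counted as detected when each pool gave 1 TPM or more. By this measure 46 of the 50 members were detected: 10 of 11 ligands, 14 of 15 receptors, 9 of 11 secreted modulators, all 11 effectors and both secretion factors. Of all 21474 protein-coding genes, 59.4% were detected, a share given for scale only because of how the members were chosen. The 4 members under the limit were Wnt8b (0.26 and 0.33 TPM), Fzd5 (0.25 and 0.36), Sfrp5 (0.64 and 0.55) and Rspo4 (0.49 and 0.53). Wnt8b and Fzd5 are best known from the forebrain and eye. Each of the 4 still had 25 or more read counts in either pool. The members nearest the limit on the detected side were Wnt2b (1.21 and 1.24 TPM) and Wnt4 (2.62 and 1.49).

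**Figure D1:**
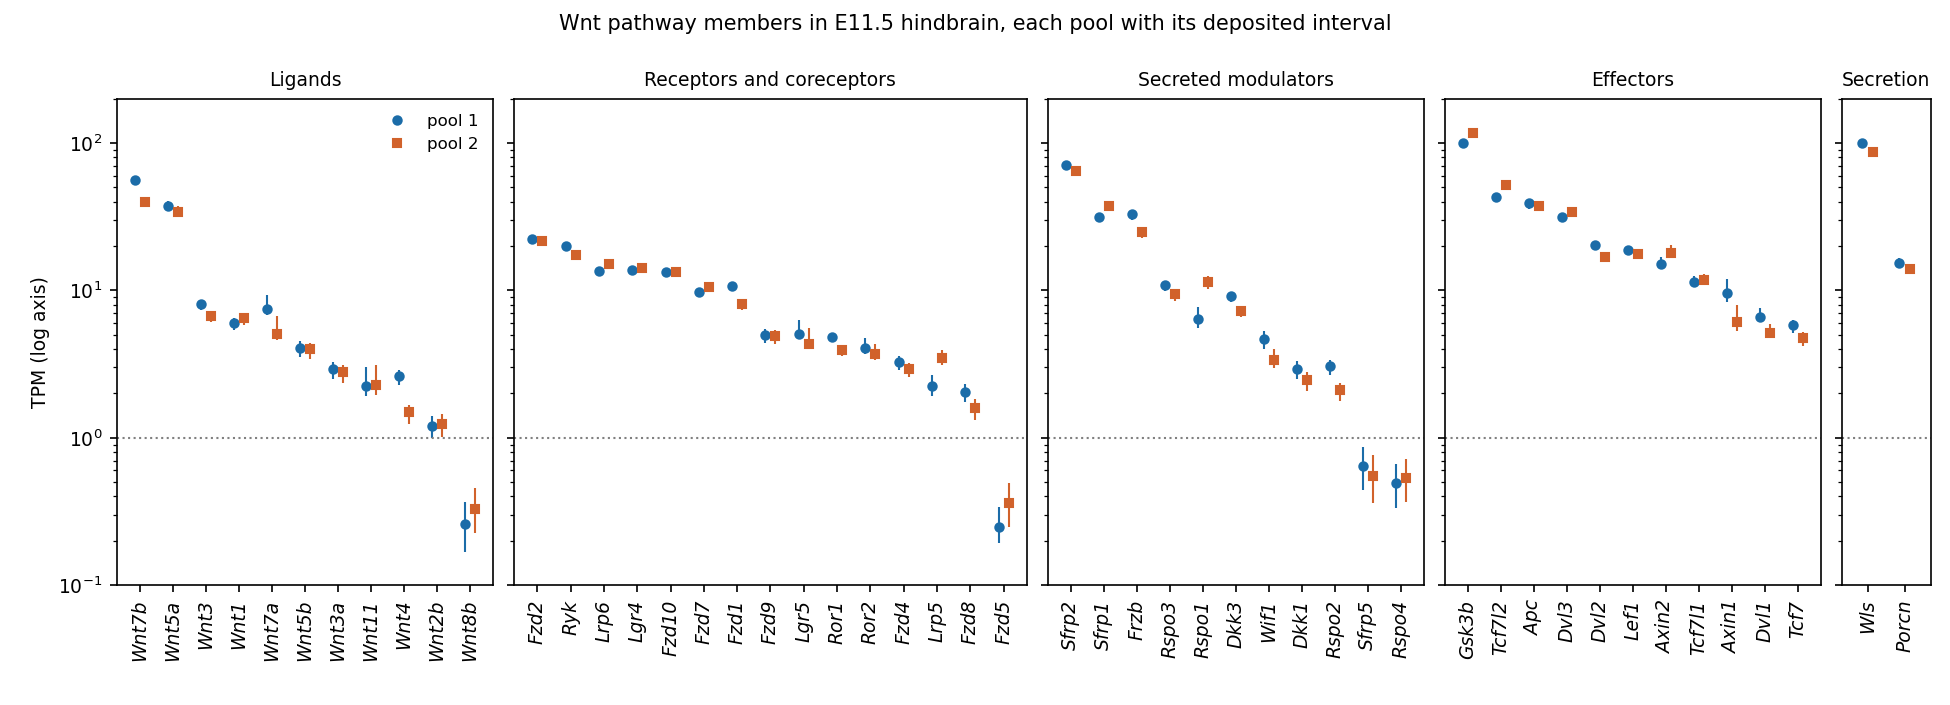
TPM of the 50 members on a log axis, by role, with pool 1 as circles and pool 2 as squares. Vertical lines are the interval deposited with each value and the dotted line is 1 TPM. Effectors sit mostly above 5 TPM, while ligands spread from about 0.26 to 56.5 TPM, and the 4 undetected members lie under the line in both pools.

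Levels differed by role. The median effector was at 18.9 TPM in pool 1 and 17.6 in pool 2, against 4.07 and 3.98 for the median ligand, a ratio of medians of 4.53 (log2 2.18 ± 0.05, SD, n = 2). The median receptor was at 5.07 and 4.94 TPM, and the median secreted modulator at 6.44 and 7.28. The 2 secretion factors had the highest median, 57.3 and 50.7 TPM. Summed over the role, ligands gave 117 ± 17.3 TPM, receptors 128 ± 3.17, secreted modulators 169 ± 6.39 and effectors 311 ± 14.3 (mean ± SD, n = 2). The summed ligand level, 129 TPM in pool 1 and 105 in pool 2, was close to the summed receptor level in pool 1 (130 TPM) and below it in pool 2 (126). The summed levels of the secreted modulators were above both in each pool. These sums cover the members only, and the order of roles holds for this list. Other pathway genes were left out, such as the receptor Fzd3 (41.6 and 56.3 TPM) and the 8 other Wnt genes (11.1 and 12.7 TPM together).

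The 2 secretion factors were at very different levels. Wls, the carrier of finished Wnts, was at 99.4 TPM in pool 1 and 87.5 in pool 2. That placed it above 88.3% of the 12766 protein-coding genes detected in both pools. Porcn, the acyltransferase, was at 15.3 and 14.0 TPM. The Wls level was 6.38 ± 0.18 times that of Porcn (mean of the ratio in each pool, SD, n = 2), and both were near the median gene in their pool difference.

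Among the ligands, 2 genes stood well above the rest in both pools. Wnt7b, a beta-catenin-dependent ligand known for brain angiogenesis and neural progenitors, was at 56.5 TPM in pool 1 and 40.1 in pool 2 (48.3 ± 11.6). Wnt5a, the best-known ligand of the Ror and Ryk branch, was at 37.5 and 34.0 TPM (35.8 ± 2.47). Over all 19 Wnt genes annotated, Wnt7b held 40.3% and 34.2% of the summed TPM and Wnt5a 26.8% and 29.0%, so this pair made up 67.1% and 63.2% of Wnt mRNA. Their paralogs were far lower: the Wnt7b level was 7.73 ± 0.29 times that of Wnt7a, and the Wnt5a level 8.89 ± 0.47 times that of Wnt5b.

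Wnt1, Wnt3 and Wnt3a, the ligands known from the roof plate and the midbrain-hindbrain border, were each below Wnt5a in both pools. Wnt3 was at 8.14 TPM in pool 1 and 6.74 in pool 2, Wnt1 at 6.04 and 6.55, and Wnt3a at 2.93 and 2.78. Together these 3 gave 17.1 and 16.1 TPM (16.6 ± 0.74). Roof plate and choroid plexus markers were lower in pool 2 for 5 of 6 genes relative to the median gene. Their summed level, 264 and 188 TPM, was mostly Ttr. The part of these markers in the levels of Wnt1, Wnt3 and Wnt3a was not tested. Wnt7a, at 7.51 and 5.05 TPM, was between Wnt3 and Wnt1 in pool 1 and below both in pool 2.

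Of the remaining ligands, Wnt5b was at 4.07 TPM in pool 1 and 3.98 in pool 2, above Wnt3a in both. Wnt11, another ligand linked to cell polarity, was at 2.25 and 2.27 TPM. Wnt4, which can act with or without beta-catenin, was at 2.62 and 1.49 TPM, from 315 and 172 read counts, and the deposited intervals of its TPM (2.30 to 2.86 in pool 1 and up to 1.68 in pool 2) did not overlap. Wnt2b was at 1.21 and 1.24 TPM.

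The 8 Wnt genes outside the membership added little. Wnt6, known from surface ectoderm and roof plate, was at 5.02 and 6.78 TPM and was thus at the level of Wnt1. Wnt9a was at 2.87 and 1.85 TPM, Wnt10a at 1.19 and 1.40, and Wnt2 at 0.87 and 1.54. Wnt10b (0.37 and 0.33), Wnt8a (0.29 and 0.24), Wnt9b (0.27 and 0.26) and Wnt16 (0.24 and 0.25) were under 1 TPM in both pools.

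Wnt genes are often arranged in neighbouring pairs, and 4 such pairs lie within 100 kb on mm10. Their members were unequal in 3 of the 4 pairs. Wnt3 (chr11:103774150-103817957, + strand) and Wnt9b (chr11:103727364-103749821, - strand) are 24.3 kb apart, and Wnt3 was 28.0 ± 2.99 times as high. Wnt1 (chr15:98789857-98793837, + strand) lies 11.7 kb from Wnt10b (chr15:98770712-98778150, - strand) and was 18.1 ± 2.49 times as high. Wnt6 and Wnt10a, 6.19 kb apart on chromosome 1 and on the same strand, differed 4.53 ± 0.44 times. Wnt3a and Wnt9a, 16.2 kb apart on chromosome 11 on opposite strands, were closer to each other, at 2.93 and 2.87 TPM in pool 1 and 2.78 and 1.85 in pool 2.

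Among the Frizzled receptors the highest member was Fzd2, at 22.2 TPM in pool 1 and 21.8 in pool 2 (22.0 ± 0.29). Fzd10, a Frizzled of the dorsal neural tube, was at 13.4 and 13.3 TPM, Fzd7 at 9.78 and 10.6, and Fzd1 at 10.7 and 8.06. Fzd7 and Fzd1 exchanged order between the pools and cannot be ranked. Fzd9 was at 5.01 and 4.94 TPM, Fzd4, the Norrin receptor of blood vessels, at 3.29 and 2.94, and Fzd8 at 2.06 and 1.59. The largest single Frizzled of this tissue is not among the members: Fzd3, known for axon guidance and planar polarity, was at 41.6 and 56.3 TPM and held 36.7% and 45.5% of the summed TPM of all 10 Frizzled genes. Fzd2 held 19.6% and 17.6%. Fzd6, the paralog of Fzd3, was at 4.91 and 3.98 TPM.

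The coreceptors of the beta-catenin branch were uneven. Lrp6 was at 13.6 TPM in pool 1 and 15.2 in pool 2, and Lrp5 at 2.25 and 3.48, so Lrp6 was 5.19 ± 1.17 times as high. Among the receptors of the other branch, Ryk was at 19.9 and 17.3 TPM, Ror1 at 4.86 and 3.94 and Ror2 at 4.07 and 3.70. Ryk was thus at about the level of Fzd2, and Ror1 and Ror2 were close to each other in both pools. Lgr4, a receptor for R-spondins, was at 13.8 and 14.2 TPM, and its relative Lgr5, itself a Wnt target, at 5.07 and 4.32 TPM, below Lgr4 in both pools.

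**Figure D2:**
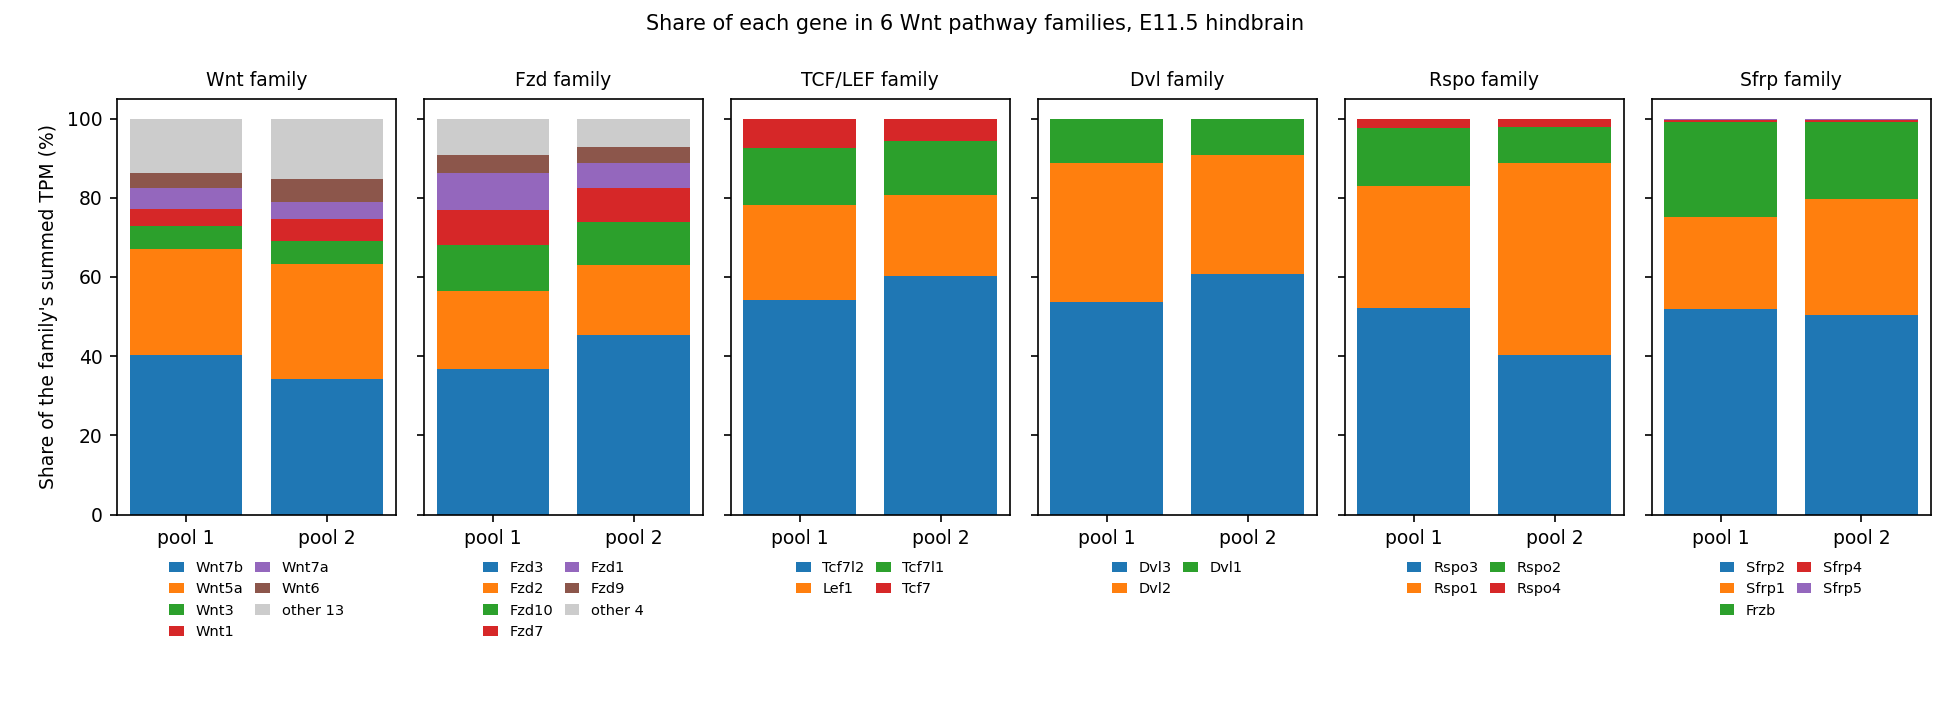
Share of each gene in the summed TPM of its family, in percent, as stacked bars for pool 1 and pool 2, with the smaller genes of the Wnt and Fzd families joined in grey. Wnt7b and Wnt5a fill over 60% of the Wnt bar in each pool, and the Rspo3 and Rspo1 segments exchange order between the pools.

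The secreted modulators were led by the Sfrp group, secreted proteins with a Frizzled-like domain that bind Wnts. Sfrp2 was at 70.9 TPM in pool 1 and 65.0 in pool 2, Sfrp1 at 31.7 and 37.6, and Frzb at 32.8 and 24.9. The 4 Sfrp-type members summed to 136 and 128 TPM, above the 129 and 105 TPM of the 11 ligands. Over whole families, all 19 Wnt genes gave 140 and 117 TPM and the 5 Sfrp-type genes 137 and 129. The order then held only in pool 2. Sfrp2 held 51.9% and 50.5% of its family. Sfrp1 and Frzb could not be ranked, since each was higher in 1 pool. Wif1, which binds Wnts directly, was at 4.68 and 3.37 TPM. Dkk1, which blocks Lrp5 and Lrp6, was at 2.95 and 2.48 TPM, and Dkk3, a divergent relative that is not a typical Wnt inhibitor, at 9.16 and 7.28.

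R-spondins strengthen Wnt signals through Lgr receptors and the ubiquitin ligases Znrf3 and Rnf43. Rspo3 was at 10.9 TPM in pool 1 and 9.45 in pool 2, and Rspo2 at 3.06 and 2.10. Rspo1 was at 6.44 TPM in pool 1 and 11.4 in pool 2, from 305 and 546 read counts. The leading R-spondin was therefore Rspo3 in pool 1 (52.1% of the family against 30.9% for Rspo1) and Rspo1 in pool 2 (48.5% against 40.3% for Rspo3). In the read counts, which are not corrected for length, Rspo3 led in both pools, with 53.9% and 44.3%. The other 5 families (Wnt, Fzd, TCF/LEF, Dvl and Sfrp) each had the same leading gene by TPM in both pools.

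The effectors had the largest summed TPM of the 5 roles. Gsk3b, the kinase that marks beta-catenin, was at 99.6 TPM in pool 1 and 118 in pool 2, above 90.2% of detected protein-coding genes. It was 10.3 ± 0.92 times as high as Gsk3a (10.3 and 10.7 TPM), its paralog. Apc, the tumour suppressor scaffold, was at 39.0 and 37.2 TPM, and its neural paralog Apc2 at 55.3 and 68.1. Of the Axins, Axin2, a feedback target of the pathway, was at 15.1 and 18.0 TPM, while Axin1 was at 9.59 and 6.08. Axin2 was above Axin1 in both pools, by 1.58 times in pool 1 and 2.96 times in pool 2.

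The Dishevelled proteins relay the signal from Frizzled. Dvl3 was at 31.3 TPM in pool 1 and 34.0 in pool 2, Dvl2 at 20.4 and 16.8, and Dvl1 at 6.59 and 5.14, an order that held in both pools. Of the 4 TCF/LEF factors, Tcf7l2 was at 42.8 and 51.7 TPM and held 54.2% and 60.3% of the family. Lef1 followed at 18.9 and 17.6 TPM, then Tcf7l1, mostly a repressor, at 11.5 and 11.7, and Tcf7 at 5.80 and 4.77. That order was also the same in both pools. By read counts, which are not corrected for length, Tcf7l2 held 49.7% and 49.3% of the family. Its transcripts that reach the last exon gave 24.8 and 18.1 TPM. Short ones that stop earlier, described below, gave 15 and 30.4.

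The rest of the pathway was taken from 5 lists that together hold 71 entries. Of the 28 other intracellular components all 28 were detected, led by Ctnnb1 (beta-catenin, 493 and 411 TPM), Csnk1a1 (a kinase of the destruction complex, 274 and 256) and Aes (a Groucho-related corepressor, 177 and 169). Of 13 other receptors and coreceptors 10 were detected, led by the glypican Gpc3 (241 and 232 TPM), Fzd3 and the polarity receptor Ptk7 (16.0 and 10.9), although the glypican Gpc4 (14.96 and 11.87) was above Ptk7 in pool 2. Of 10 other secreted modulators 7 were detected, led by Tpbg (26.2 and 23.8 TPM, a membrane protein), Sostdc1 (13.6 and 19.0) and Dkk2 (10.2 and 9.00), although Draxin, an axon guidance protein (9.65 and 9.48), was above Dkk2 in pool 2. Of 12 genes often used as Wnt feedback targets 11 were detected, led by Ccnd1 (132 and 127 TPM), Nkd1 (33.5 and 32.4) and Lef1, which was below Axin2 in pool 2, with Rnf43 short of the limit in pool 1 (0.83 and 1.03). Lef1, Axin2, Lgr5 and Tcf7 are both members and feedback targets.

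The pools were compared by log2 of (TPM + 1) in pool 2 over pool 1, relative to the median gene, and a gene was counted past a 1.5-fold difference. Rspo1 was the only member that passed, with 0.84 on the log2 scale, or 1.79-fold, and it was higher in pool 2. That is 1 of the 46 members with a mean TPM of at least 1, against 4.35% of all 14942 such genes. No member passed in the other direction, against 1.63% of all genes. All 46 also averaged at least 100 read counts. Of the 13128 genes that did so, fewer passed, 2.41% as higher and 0.79% as lower in pool 2. The median member differed by 0.14 in size on the log2 scale and the median gene by 0.15. Set against protein-coding genes of like read count, the picture depended on depth. At 100 to 300 reads the medians were 0.13 for 9 members and 0.20 for all, and at 300 to 1000 reads 0.14 (17 members) and 0.15. At 1000 to 3000 reads they were 0.19 (12 members) and 0.12, and at 3000 to 30000 reads 0.17 (8 members) and 0.11. Lrp5 lay just inside the limit, at 0.57, and passed it with a pseudocount of 0.1, with TPM rescaled over protein-coding genes and with read counts in place of TPM. With a pseudocount of 0.1, Wnt4 passed as lower in pool 2.

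**Figure D3:**
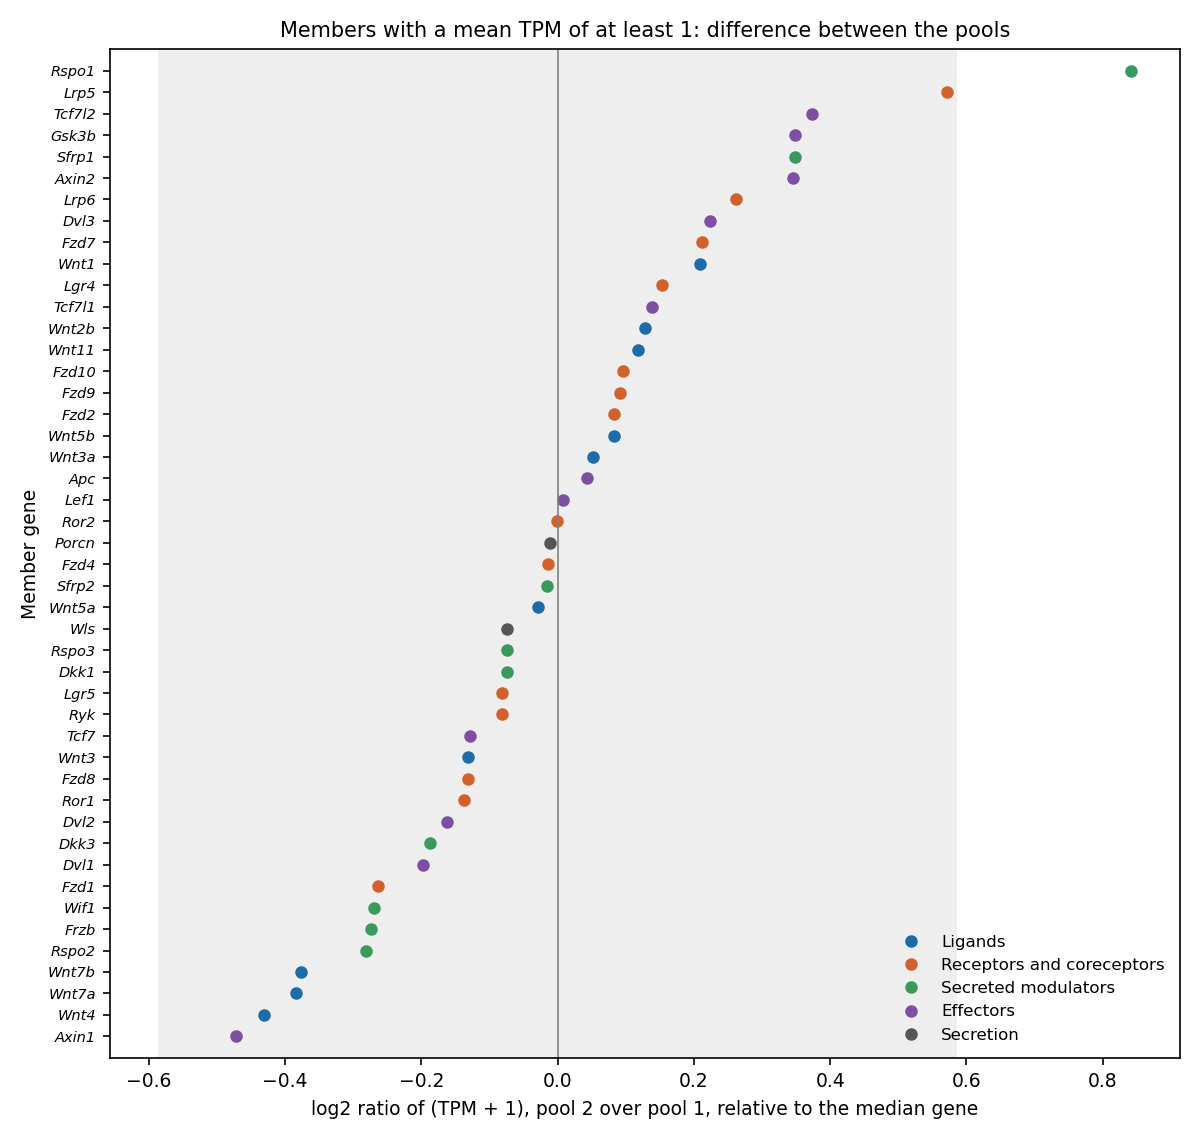
Log2 ratio of (TPM + 1) in pool 2 over pool 1, relative to the median gene, for the 46 members with a mean TPM of at least 1, coloured by role. The grey band is the range under 1.5-fold. Rspo1, at 0.84, is the only point outside the band, and Axin1, at -0.47, is the lowest.

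The members at the low end of this ratio were Axin1 (-0.47), Wnt4 (-0.43), Wnt7a (-0.38) and Wnt7b (-0.38). All 4 are within the 1.5-fold limit. At the high end after Rspo1 and Lrp5 came Tcf7l2 (0.37), Gsk3b (0.35), Sfrp1 (0.35) and Axin2 (0.35). Relative to the median gene, 6 of 11 ligands, 8 of 15 receptors, 4 of 11 secreted modulators and 7 of 11 effectors were above 0. Both secretion factors were slightly below it (Wls -0.07, Porcn -0.01). Among the other pathway genes 3 passed the limit: Macf1 (54.8 and 77.3 TPM, 0.60), Tle4 (22.8 and 13.5, -0.61) and Adgra2 (1.82 and 3.32, 0.72), the last named after its values were seen. At a mean TPM of at least 1, this was 1 higher and 1 lower of 28 intracellular components, and 1 higher of 10 receptors and coreceptors. No gene of the remaining lists passed. Over all genes 4.35% passed as higher and 1.63% as lower.

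The deposited intervals, which describe quantification within a library and not variation between embryos, were compared after scaling pool 2 to the median gene. They did not overlap for 10 of 46 members higher in pool 2, where 13.8% of all genes did the same, and for 7 members lower in pool 2, where 17.3% of all genes did. The 10 were Rspo1, Lrp5, Tcf7l2, Gsk3b, Sfrp1, Axin2, Lrp6, Dvl3, Fzd7 and Lgr4. The 7 were Wnt4, Wnt7b, Rspo2, Frzb, Fzd1, Dkk3 and Wls. For Rspo1 the deposited intervals were 5.55 to 7.72 TPM in pool 1 and 10.3 to 12.5 in pool 2.

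Marker genes moved between the pools as well. All 4 floor plate markers were above the median gene in pool 2 (0.31 to 0.52 on the log2 scale), all 5 dorsal progenitor markers were above it (0.01 to 0.35, summed level 207 and 220 TPM), and 6 of 6 skeletal muscle markers were below it (-1.03 to -0.25). Their part in the difference of Rspo1 or of any other member was not tested. Rspo1 (chr4:124986430-125009099, + strand) also overlaps Gm12930, an antisense gene (chr4:124957647-124987009), but only at the 5′ end of Rspo1. The sources used here do not say whether counting used strand, so reads from that short stretch may not have been told apart. In all, 22 members overlap an annotated gene on the opposite strand, among them Wnt7b, Wnt5a, Sfrp2, Lef1 and Dvl2. The overlap can be very short: Dvl1 ends at chr4:155859303 and Tas1r3 begins at chr4:155859268.

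At the level of transcripts, 21 members had at least 2 annotated transcripts and a mean TPM of at least 5. In 17 of them the same transcript led in both pools, and in 4 (Apc, Lef1, Lgr4 and Tcf7l2) it changed, where 8.27% of 7825 genes of this kind changed. By transcript read counts only Lef1 and Lgr4 changed. Among 61 transcripts of these members with a mean TPM of at least 1, the deposited intervals did not overlap for 11 that were higher in pool 2, against 9.99% of 24794 such transcripts of all genes. They did not overlap for 7 that were lower, against 9.03%.

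Lgr4 was at 13.8 and 14.2 TPM as a gene, but its make-up differed between the pools. Lgr4-201, which includes the 72-base exon 2, was at 10.8 TPM in pool 1 and 5.74 in pool 2. Lgr4-202, which skips it, was at 2.80 and 7.47 TPM, and its deposited intervals did not overlap (0.08 to 5.08 and 5.25 to 9.73). Inclusion of the exon was therefore 79.5% in pool 1 and 43.5% in pool 2 (61.5% ± 25.5, n = 2), a spread too wide to give the tissue's exon usage. The exon lies in the part that encodes the receptor's leucine-rich ectodomain, which binds R-spondins.

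Tcf7l2 gave a higher TPM in pool 2 from fewer reads, 3109 and 2769 counts. With counts scaled by TMM its pool ratio was 0.02 on the log2 scale, in place of 0.37 by TPM. Short transcripts took a larger share in pool 2. Tcf7l2-204, which has 982 bases and ends in the intron stretch printed above, was at 2.85 TPM in pool 1 and 16.5 in pool 2, with deposited intervals that did not overlap. Full-length Tcf7l2-209, with 15 exons, was at 16.2 and 9.09 TPM. The 6 transcripts that stop before the exon after that intron held 35.0% and 58.8% of Tcf7l2 TPM but 13.4% and 28.3% of its read counts. The 10 transcripts that reach the last exon held 80.8% and 64.9% of the read counts. The second short form, Tcf7l2-206, made up 20.4% and 22.6% of TPM. Its length was 1041 bases as deposited and 1087 in M21.

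Gsk3b was mostly the common form without the extra exon. Gsk3b-201 held 89.2% and 84.2% of TPM in pools 1 and 2. Gsk3b-202, which adds the 39-base exon 9 and so 13 codons, was at 4.28 and 9.00 TPM, with deposited intervals that did not overlap. Among these 2 forms the mean inclusion was 6.46% ± 2.63 (SD, n = 2), and it was higher in pool 2, at 8.32%. The longer form is known as a neural isoform of the kinase.

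Lef1 used both of its C-terminal ends about equally. Transcripts with the 41-base exon held 59.4% in pool 1 and 48.7% in pool 2 of those that cross this position (54.0% ± 7.54). Lef1-202 was at 9.66 and 8.17 TPM and Lef1-204, which skips the exon, at 7.34 and 8.61. Their deposited intervals overlapped in both pools, so the 2 forms could not be ranked. Another coding exon, of 84 bases at chr3:131191023-131191106, was present in 5.87% of Lef1 TPM crossing it in pool 1 and was listed at 0 in pool 2.

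Ryk was split between its 2 splice acceptors. The upstream acceptor, which adds the 9 bases, was used in 44.8% and 38.7% of TPM (41.7% ± 4.26). Ryk-201 was at 9.59 and 8.05 TPM and Ryk-203 at 8.72 and 6.36, with overlapping intervals in each pool.

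**Figure D4:**
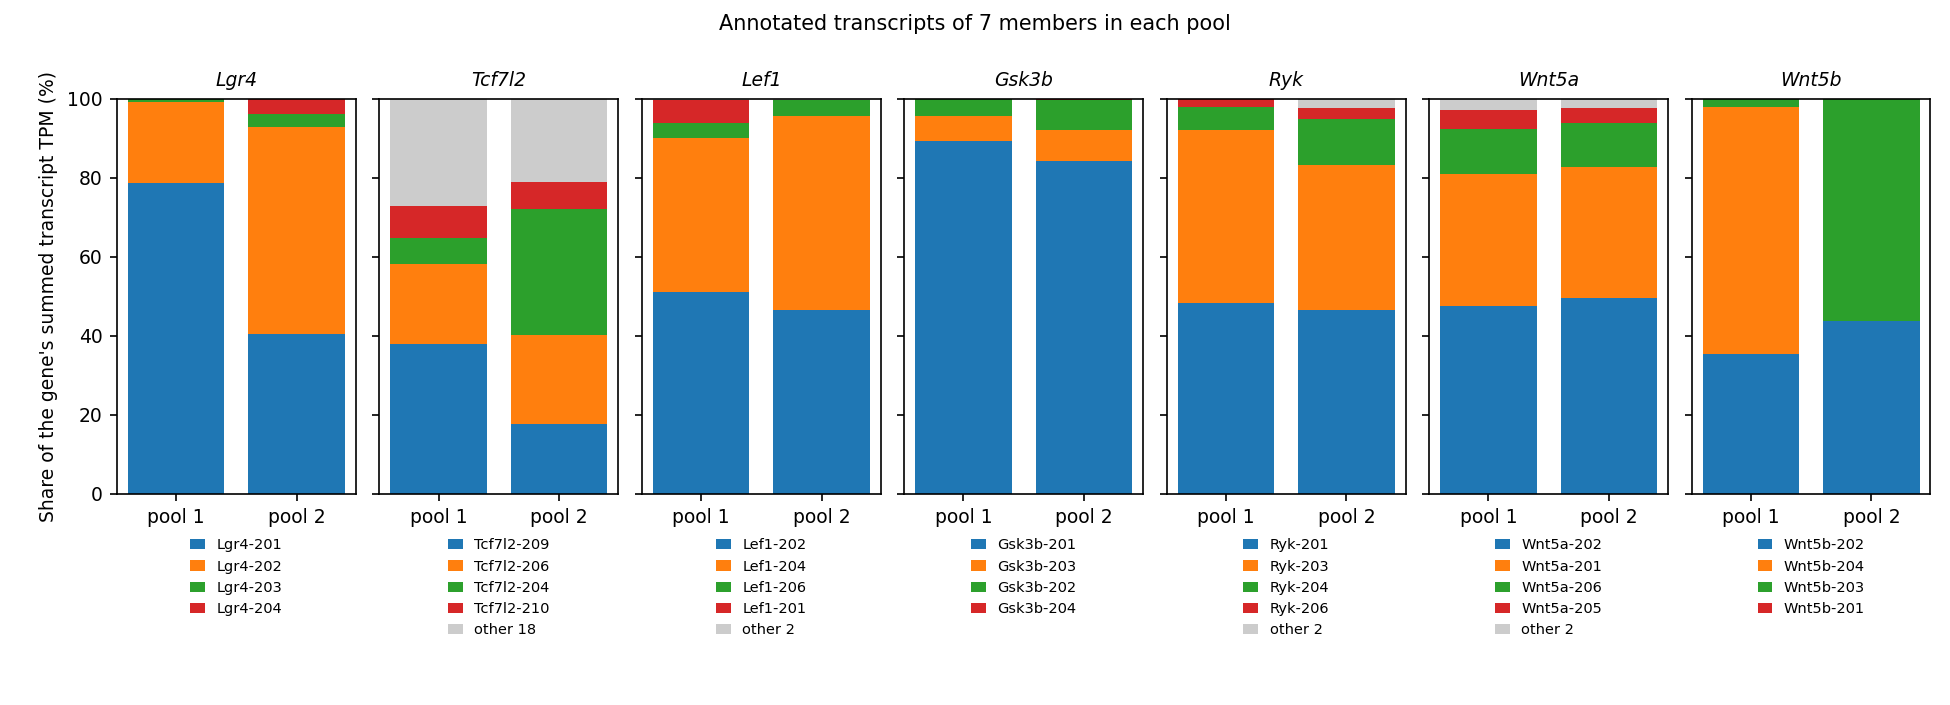
Share of each annotated transcript in its gene's summed transcript TPM, in percent, as stacked bars for pools 1 and 2, for Lgr4, Tcf7l2, Lef1, Gsk3b, Ryk, Wnt5a and Wnt5b, with the 4 highest transcripts coloured and the rest in grey. The leading segment differs between the pools for Lgr4 (78.7% and 40.3% for Lgr4-201), while the Wnt5a bars are nearly alike.

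For Wnt5a, the 2 highest transcripts begin at different first exons, and each had nearly the same share of TPM in both pools. Wnt5a-202, whose first exon begins at chr14:28511405-28511423, held 47.5% and 49.5% of TPM. Wnt5a-201, which begins upstream at chr14:28504750-28506114, held 33.3% in each pool. Both encode protein. By transcript read counts, which are not corrected for length, the longer Wnt5a-201 led in both pools. The non-coding Wnt5a-206, with yet another start, was at 4.30 and 3.79 TPM. The share of Wnt5a-202 varied by 1.37 percentage points (SD, n = 2), against 3.26 for Lef1-202 and 27.1 for Lgr4-201.

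For Wnt5b the start site is the clearer unit, because Wnt5b-203 and Wnt5b-204 share the distal first exon and traded places between the pools (0.09 and 2.24 TPM for the former, 2.54 and 0.00 for the latter). Counted by start, the distal site held 64.6% and 56.3% of Wnt5b TPM and the proximal site, used by Wnt5b-202, held 35.4% and 43.7%. The deposited intervals of Wnt5b-202 reached down to nearly 0 TPM in both pools (up to 1.87 in pool 1 and 2.14 in pool 2), so use of the proximal site was not firmly measured. Another annotated start was listed at 0 in both pools. The 250 bases before the 2 starts with a TPM above 0 are printed to show how unlike they are. They come from RefSeq (GRCm38.p6), on the - strand, 5′ to 3′, and capitals mark CpG dinucleotides.
Wnt5b distal start (chr6:119544348-119544597): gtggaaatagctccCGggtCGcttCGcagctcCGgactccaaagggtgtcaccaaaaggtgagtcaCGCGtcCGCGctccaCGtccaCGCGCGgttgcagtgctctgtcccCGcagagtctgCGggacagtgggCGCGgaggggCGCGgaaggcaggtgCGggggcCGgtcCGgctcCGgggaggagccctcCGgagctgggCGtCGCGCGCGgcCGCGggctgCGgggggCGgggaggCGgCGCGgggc
Wnt5b proximal start (chr6:119467212-119467461): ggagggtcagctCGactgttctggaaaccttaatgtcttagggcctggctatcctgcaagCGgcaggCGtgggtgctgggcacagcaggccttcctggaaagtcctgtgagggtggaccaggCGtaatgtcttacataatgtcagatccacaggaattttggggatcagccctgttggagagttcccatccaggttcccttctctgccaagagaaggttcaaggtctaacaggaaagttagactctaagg
The distal window holds 35 CpGs and is 75.2% G and C, and the proximal window holds 4 and is 53.2% G and C. RefSeq promoter windows (300 bases, 250 before the start to 50 after it) were at hand for 36 of the 50 members, 44 windows in all. The TCF/LEF-type letters CTTTGAT, searched on both strands, were in 2 of the 44 windows (Wnt11 and that last Wnt5b start), or 4.55%, against 3.73% of all 32851 windows. The letters CTTTGAA were in 1 (Dkk1), or 2.27%, against 5.14% of all. These are matches of letters only.

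Transcripts not annotated as protein-coding, such as those with a retained intron, took a larger share in pool 2 for many genes. Among 6186 protein-coding genes with both kinds of transcript, 65.4% had a larger non-coding share of TPM in pool 2. Of the 19 members of this kind 13 did, with a median share of 9.01% and 9.11%. Over all 6186 genes the median share was 10.3% and 12.8%. The median change was 0.26 percentage points for the members and 1.13 for all these genes. The largest moves were in Dvl1 (42.0% and 67.4%), Tcf7l2 (40.9% and 64.6%) and Dvl2 (12.2% and 24.7%). For Dvl1 the protein-coding Dvl1-201 was at 3.83 and 1.68 TPM, a larger step than the 6.59 and 5.14 TPM of the whole gene. For Dvl2 the coding Dvl2-201 was at 17.1 and 11.6 TPM. Rspo1 went the other way, with 9.01% and 2.64%, and its coding transcript Rspo1-201 was at 5.86 and 11.1 TPM.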

How the data were processed

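The libraries were total RNA from 2 pools of E11.5 mouse hindbrain. Per the labels, RNA was extracted with mirVana and made into libraries with a Smart-Seq protocol and spiked-in controls, on mm10. The authors deposited per gene and per transcript estimated counts (expected counts), TPM, FPKM, an isoform percent and an interval around each TPM whose level is not stated. Aligner, counting tool and strand setting were not given in the sources used here. Symbols and coordinates came from GENCODE M21, matched on unversioned IDs (42462 of 43346), and sequences from GENCODE M21 and RefSeq. Of the 169 transcripts of members, 148 had a matching length in M21 and in the deposited data. For the others the M21 exons may differ from those behind the deposited TPM. All 50 members, the 3 highest genes of each other list, those over 1.5-fold apart at a mean TPM of at least 5, and all other Wnt and Fzd genes are named. The transcripts followed to single exons were picked after their values were seen. Members and lists were chosen with earlier results of these data known. Shares and ratios were computed in Python 3.11.15 (pandas 2.3.3), with a pseudocount of 1. Alternative scalings used edgeR 4.0.16 (TMM) and DESeq2 1.42.0 size factors on the deposited counts, the latter rounded.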

Additional observations from a re-analysis of the deposited data

How the results depend on the processing

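No paired analysis was possible because the series has 1 group. With 2 pools, means carry wide error, and 1 library decides each difference between them. The number of detected members was 30 at a TPM of at least 5. The members over 1.5-fold higher in pool 2 numbered 2 with a pseudocount of 0.1, 2 with TPM rescaled over protein-coding nuclear genes, 2 with TMM scaling and 2 with DESeq2 size factors (Lrp5 joined Rspo1 in each), and 0 at a 2-fold limit. Those lower in pool 2 numbered 1 with a pseudocount of 0.1 (Wnt4). In FPKM the summed levels were 77.7 for ligands, 85.3 for receptors, 113 for secreted modulators, 207 for effectors and 71.9 for secretion factors. Rescaled over protein-coding nuclear genes they were 166, 183, 242, 445 and 154 TPM, in the same order. Taken as means over members instead of medians, levels were 10.6 TPM for ligands, 8.53 for receptors, 15.4 for secreted modulators and 28.2 for effectors, so ligands then lay above receptors. By read counts without length correction Sfrp1 led its family in both pools, and Wnt5a led the Wnt genes in pool 2. Pool ratios by TMM kept their sign for 46 of 50 members. The remaining alternatives stayed within a set limit, except for 24 values of single genes or transcripts, mostly transcript shares taken from read counts. For the pool ratio of a single member the limit was the margin of a binomial interval on its 2 read counts, which is wide at low counts. Counts had to stay within 1.5 times of the count given. Levels and shares had to stay within 1 SD between the pools. With 2 pools, each pool's value always lies within 1 SD of their mean. For levels and shares, leaving out a pool therefore could not pass this limit, and those alternatives say nothing about stability.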
